A study of Mus musculus with 12 samples.

Results

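The comparison described here sets the dorsal piece of the embryonic mouse cerebral cortex against the ventral piece. It uses the 2 arrays titled Dorsal and the 2 titled Ventral, which are 4 of the 12 arrays of the series. They were chosen by their titles. Cortex was dissected from mouse embryos at E16.5, a stage named by the days since conception, and the labels name no strain, sex, treatment, genetic change or number of pooled embryos for any group. The other 8 arrays hold medial, rostral and occipital pieces and the whole hemisphere, with 2 arrays for each, and the protocol lists a lateral piece where the titles have a rostral one. Poly(A)+ RNA was labelled and hybridised to Affymetrix U74Av2 arrays (the version is that of the platform annotation), and the dissection was repeated independently for the second array. The limits of the pieces are not given beyond their names.

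At this stage the wall of the dorsal telencephalon (pallium) holds dividing radial glia along the ventricle, intermediate progenitors above them, and newly born glutamatergic projection neurons in the cortical plate. The ventral telencephalon (subpallium) makes the neurons that use the inhibitory transmitter GABA, both the projection neurons of the striatum and the interneurons that migrate into the cortex. A bulk sample of either piece mixes these cells, and in such samples fewer cells of a type and less RNA per cell cannot be told apart.

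The measure is Affymetrix's average difference, the mean signal of matching minus mismatching probes, which is linear and can be negative. Differences are dorsal minus ventral on a log2 scale, after values under a floor of 693.5 were set to that floor. Positive differences are higher in the dorsal piece. Folds come from the same floored log2 means and are given as "at least" where both arrays of the lower side lay at the floor. Where 2 values of a group are given together, replicate 1 comes before replicate 2.

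Of 5832 tested probe sets, 308 differed between the dorsal and the ventral piece, which is 5.28% (limma, adjusted p under 0.05). Of these, 145 were higher in the dorsal piece (2.49%) and 163 lower (2.79%). They belong to 127 genes with a higher and 142 genes with a lower value in the dorsal piece. At an unadjusted p under 0.05 limma had 1038. The median size of the difference was 1.15 in log2 for those higher in the dorsal piece and 1.27 for those lower. The largest differences were more often negative. Among the calls, 13 probe sets were higher and 36 lower by over 2 in log2. On the lower side, both arrays lay at the floor for 21 probe sets that were higher in the dorsal piece, which are thus near or under background in the ventral piece, and for 27 that were lower. When each gene was represented by its probe set of highest mean over all arrays, 249 of 4562 genes passed (5.46%), 120 higher in the dorsal piece (2.63%) and 129 lower (2.83%). These 2 percentages are the background for the gene lists described here. The count of 308 became 54 without dorsal replicate 1, 49 without dorsal replicate 2, 55 without ventral replicate 1 and 85 without ventral replicate 2, where the lone array of a group is assumed to vary like the other groups. An exact permutation test over 2 arrays against 2 cannot give a p under 0.333. A limma fit of only these 4 arrays gave 210 probe sets, 90 higher and 120 lower in the dorsal piece. Of these 210, 163 were among the 308.

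The replicate numbers gave the dorso-ventral difference separately, as dorsal 1 minus ventral 1 and dorsal 2 minus ventral 2. Over all tested probe sets the standard deviation of the difference was 0.586 for replicate 1 and 0.582 for replicate 2. The sign was the same in both for 75.9% of tested probe sets and for 74.5% of those that did not pass. A difference over 1 in log2 occurred in 483 probe sets for replicate 1, of which 254 were higher and 229 lower in the dorsal piece. For replicate 2 it occurred in 479, of which 224 were higher and 255 lower. In 272 probe sets both numbers exceeded 1 in the same direction, 124 upward and 148 downward. That is 56.3% of those in replicate 1 and 56.8% of those in replicate 2. In 1 probe set they exceeded 1 in opposite directions: Mmp11, a matrix metalloproteinase, gave 1449 and 611 on the dorsal arrays and 259 and 1484 on the ventral arrays. Across all probe sets the dorsal arrays correlated with each other at r = 0.962 and the ventral arrays at 0.953. Dorsal with ventral arrays gave 0.920 and 0.917 for equal numbers and 0.889 and 0.901 for unequal numbers.

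**Figure D1:**
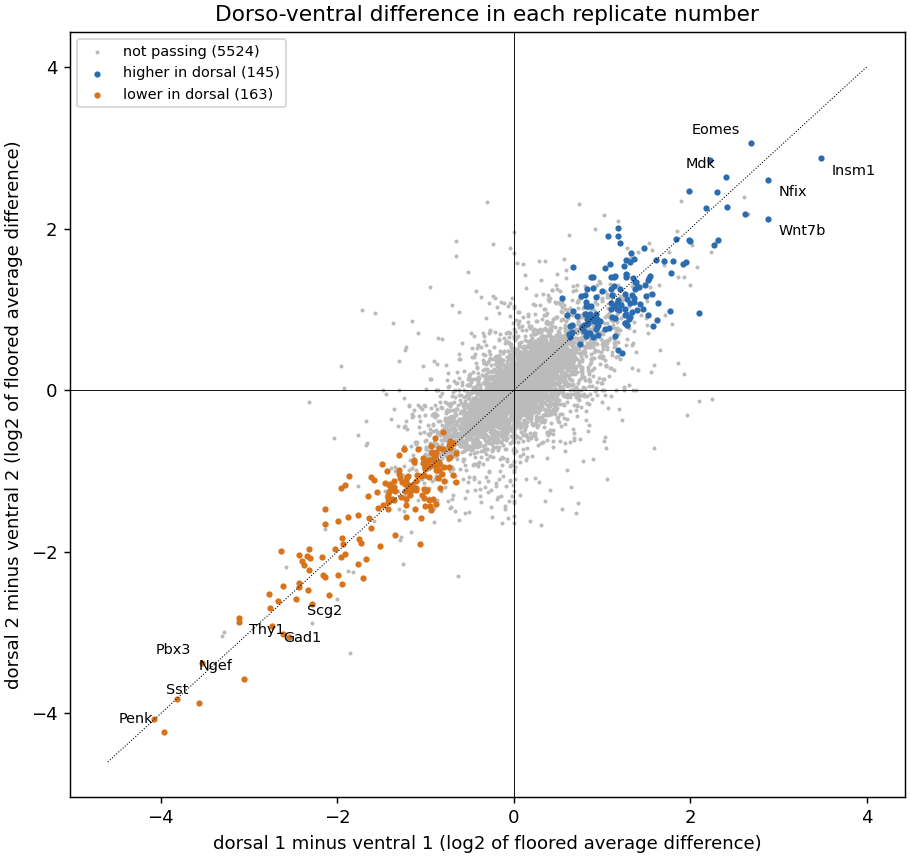
Dorso-ventral difference of each of the 5832 tested probe sets in replicate 1 (horizontal axis, log2 of floored average difference) and replicate 2 (vertical axis, same unit). Coloured points passed the test, 145 higher (blue) and 163 lower (orange) in the dorsal piece, and lie along the dotted line of equal differences; Penk, Sst and Pbx3 are farthest to the lower left and Insm1, Eomes and Nfix to the upper right.

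Insm1, Eomes, Nfix and Neurog2, which encode transcription factors of neural progenitors, had the 4 largest positive differences among passing genes with 1 symbol. Insm1, a zinc finger factor of intermediate progenitors, had 8804 and 13288 on the dorsal arrays and 786 and 1819 on the ventral arrays. The gene was 9.04-fold higher in the dorsal piece (log2 3.18 ± 0.41 SE, limma adjusted p = 0.00496, n = 2 each). Every dorsal value lay above every ventral value, as in all 145 probe sets called higher and in 28.7% of all tested. Eomes, also called Tbr2, is the T-box factor that marks intermediate progenitors. It had 4460.2 and 5764 on the dorsal arrays and 231 and 240.1 on the ventral arrays, where it lay under the floor. The difference was 2.69 in replicate 1 and 3.06 in replicate 2, and the gene was at least 7.31-fold higher in the dorsal piece (adjusted p = 0.00246). A second probe set of lower values gave 1.09 in log2 (adjusted p = 0.0669). Neurog2, the proneural factor that drives glutamatergic neurogenesis in the pallium, had 3240.1 and 5016 on the dorsal arrays and 155 and 483 on the ventral arrays. Its ventral values also lay under the floor, and it was at least 5.81-fold higher in the dorsal piece (adjusted p = 0.0219).

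Nfix, a nuclear factor I protein of neural stem cells and their progeny, had 28065 and 37860.2 on the dorsal arrays and 3816 and 6241 on the ventral arrays. It was 6.68-fold higher in the dorsal piece (adjusted p = 0.00583), and its other probe set also passed, with 2.38 in log2. Its relative Nfib had 13267 and 28102 on the dorsal arrays and 2109 and 6179.7 on the ventral arrays. Those groups did not overlap either, but the difference of 2.42 ± 0.64 (SE) missed the threshold (adjusted p = 0.0680). Fezf2, the factor that specifies deep-layer neurons projecting below the cortex, had 13907 and 14970.4 on the dorsal arrays and 2262 and 3292 on the ventral arrays, a 5.29-fold difference (adjusted p = 0.0130). Neurod6, a factor of postmitotic projection neurons, had 15079.8 and 14862 on the dorsal arrays and 4384 and 5439 on the ventral arrays (3.07-fold higher, adjusted p = 0.00973). Id2, an inhibitor of proneural factors that is also found in cortical plate neurons, was 1.83-fold higher in the dorsal piece.

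Among the list of pallial progenitor and projection neuron factors, 7 of 25 tested members were thus higher in the dorsal piece and 0 were lower. The median difference of the 25 was 0.95 in log2, against 0.02 over all genes tested. The count was 3, 1, 2 and 4 without dorsal 1, dorsal 2, ventral 1 and ventral 2, in that order. Not every pallial factor differed. Tbr1, a factor of early-born deep-layer neurons, had 24036 and 21368 on the dorsal arrays and 20333 and 21076 on the ventral arrays. The groups did not overlap, and the difference was small (log2 0.13 ± 0.23 SE, adjusted p = 0.846). Nr2f2, an orphan nuclear receptor of caudal and ventral telencephalon, ran the other way, with 538 and 368 on the dorsal and 2784 and 4151 on the ventral arrays, and did not pass (adjusted p = 0.205). Mef2c did not pass by its probe set of highest mean. Another passed with 1.19 (limma adjusted p = 0.0402), and the rest did not.

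Few genes of radial glia, the stem cells of the ventricular zone, passed. Of 28 tested, 2 were higher in the dorsal piece and 0 lower, with a median of 0.27. The members that passed were Gas1, a membrane protein that binds hedgehog ligands and was first found in growth-arrested cells, and Prom1, the apical membrane protein prominin. Gas1 had 4329 and 4088 on the dorsal arrays and 899 and 1177 on the ventral arrays (4.09-fold higher, adjusted p = 0.00246). Prom1 had 2764 and 2568 on the dorsal arrays and 887 and 1211 on the ventral arrays (2.57-fold higher, adjusted p = 0.00567). The count was 1, 1, 1 and 2 without dorsal 1, dorsal 2, ventral 1 and ventral 2. Defining markers of the class did not pass. Pax6, a homeobox factor of pallial radial glia, differed by 0.33 ± 0.23 (SE), the intermediate filament gene Nes by 0.21 ± 0.18, the stem cell factor Sox2 by -0.36 ± 0.37, and the fatty acid binding protein gene Fabp7 by -0.24 ± 0.16. Sfrp1, a secreted inhibitor of Wnt signals, had 4642 and 3521 on the dorsal arrays and 1247 and 674 on the ventral arrays, a large difference that also missed the threshold (adjusted p = 0.0680).

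**Figure D2:**
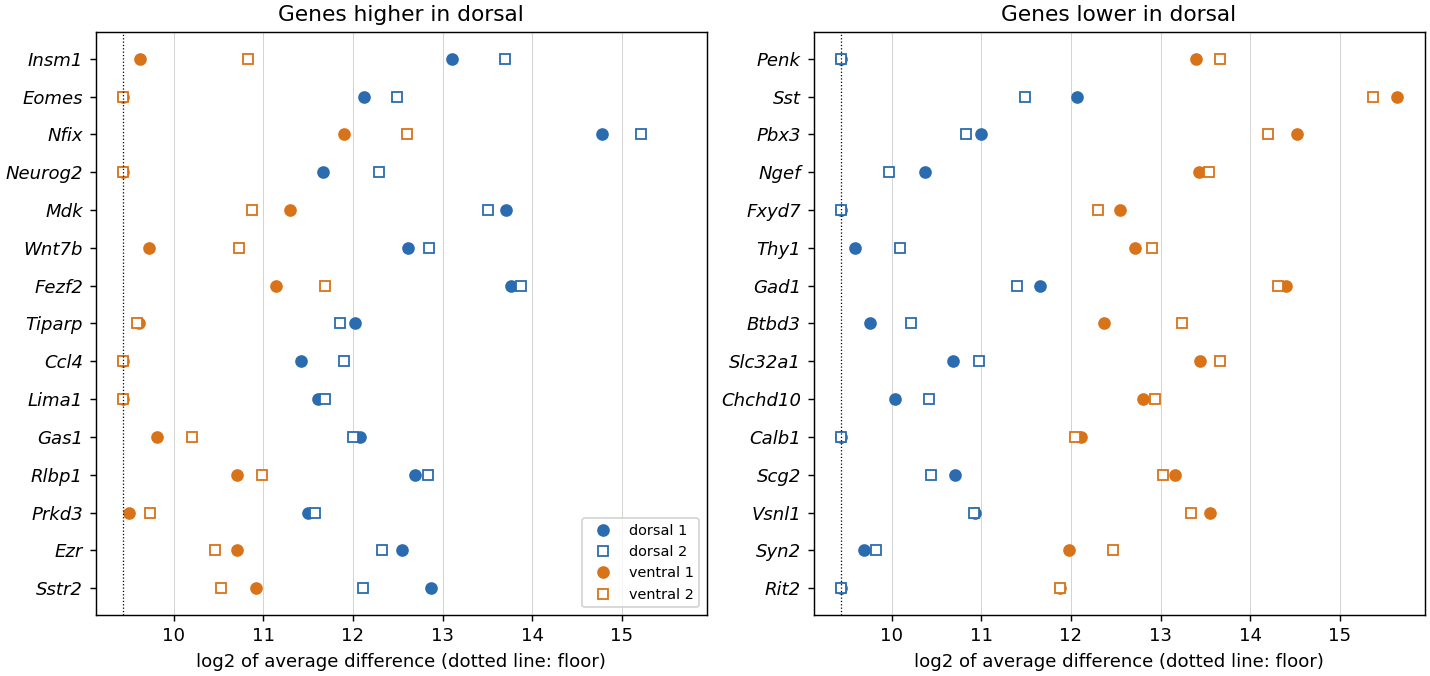
Level of the 30 genes with the largest differences, 15 in each direction, on the dorsal arrays (blue) and the ventral arrays (orange), as log2 of the average difference. Circles are replicate 1 and squares replicate 2, and the dotted line is the floor. The groups overlap for none of the 30 genes, which is also true of all 308 probe sets that passed. The ventral values of Eomes, Neurog2, Ccl4 and Lima1 and the dorsal values of Penk, Fxyd7, Calb1 and Rit2 lie at the floor.

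Cell cycle genes that passed were all higher in the dorsal piece, and most tested members did not pass. Of 35 tested genes of the G2 and M phases, 11 were higher and 0 lower, with a median of 0.86 in log2. Of 31 genes of the G1 and S phases, 8 were higher and 0 lower, with a median of 0.43. The mitotic kinase Cdk1 had 3485 and 3630.2 on the dorsal arrays and 1074 and 1197 on the ventral arrays (3.14-fold higher, adjusted p = 0.00246). Cdc20, an activator of the anaphase-promoting complex, had 4486 and 4789.7 on the dorsal arrays and 2039 and 1815 on the ventral arrays (2.41-fold higher). The chromatin protein gene Hmgb2, whose transcript peaks in dividing cells, had 7102 and 6022 on the dorsal arrays and 2556 and 1775 on the ventral arrays (3.07-fold higher). The dorsal and ventral values of these genes did not overlap, as in all 145 probe sets called higher and in 28.7% of all tested. The spindle genes Prc1 and Ckap2 were 2.53-fold and at least 3.35-fold higher, and Ect2, an exchange factor needed for cytokinesis, at least 2.74-fold higher.

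The proliferation marker Mki67 and the topoisomerase gene Top2a had positive differences of 1.13 ± 0.46 and 0.86 ± 0.35 (SE) that did not pass. In the DNA synthesis group, Rrm1, a subunit of ribonucleotide reductase, had 3149 and 3269 on the dorsal arrays and 1027 and 1065 on the ventral arrays (3.07-fold higher, adjusted p = 0.00342). The helicase subunit genes Mcm2 and Mcm7 were 2.40-fold and 2.32-fold higher, the DNA methylation maintenance factor gene Uhrf1 2.38-fold, the polymerase gene Pold1 2.07-fold and the clamp loader gene Rfc4 2.86-fold higher. The count of G2 and M genes was 2, 3, 4 and 4 without dorsal 1, dorsal 2, ventral 1 and ventral 2, and that of G1 and S genes 1, 1, 1 and 4.

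Cell cycle genes with a late peak often carry a CHR element (TTTGAA) and CCAAT boxes just upstream of their start, which are bound by the DREAM complex and by NF-Y. The 120 bases before the RefSeq start of 3 of the genes described above are printed here as an example of that arrangement, from build GRCm38.p6 and read 5′ to 3′ toward the gene, with both motifs in capitals on whichever strand they lie (ATTGG and TTCAAA are the reverse forms). Cdk1 lies on the minus strand at chr10:69352913-69353032, Cdc20 on the minus strand at chr4:118437344-118437463 and Hmgb2 on the plus strand at chr8:57511723-57511842.
Cdk1: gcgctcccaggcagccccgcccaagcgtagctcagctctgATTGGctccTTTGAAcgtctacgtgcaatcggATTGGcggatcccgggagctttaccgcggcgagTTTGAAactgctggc
Cdc20: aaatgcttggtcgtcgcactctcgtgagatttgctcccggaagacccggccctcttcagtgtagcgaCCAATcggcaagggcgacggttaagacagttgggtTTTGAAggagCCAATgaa
Hmgb2: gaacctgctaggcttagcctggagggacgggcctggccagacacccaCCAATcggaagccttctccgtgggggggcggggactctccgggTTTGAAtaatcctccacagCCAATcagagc
The TTTGAA nearest the start begins 15 bases before it in Cdk1, 18 in Cdc20 and 30 in Hmgb2. Of the 11 G2 and M genes higher in the dorsal piece, 9 had a window, and 6 of these held both motifs within 250 bases upstream (Ccnb2, Cdc20, Cdk1, Ckap2, Ect2 and Hmgb2). Both motifs occurred in 5.73% of the windows of 27025 genes and in 4.16% of those of the tested genes. Both motifs were chosen after the values were seen, and a match is a description of the letters only.

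The list of chromatin protein genes shares members with the cell cycle lists. Of 45 tested, 7 were higher in the dorsal piece, 0 were lower and 38 did not pass, with a median of 0.30. Besides Hmgb2 these included Ezh2, the methyltransferase of Polycomb repressive complex 2, with 8261 and 8198 on the dorsal arrays and 3814 and 3608 on the ventral arrays (2.22-fold higher, adjusted p = 0.00683). The histone chaperone gene Chaf1b was at least 2.34-fold higher, the deacetylase gene Hdac1 at least 2.20-fold, the Polycomb reader gene Cbx2 at least 1.94-fold and the demethylase gene Kdm5b 2.11-fold higher. A second probe set of Cbx2, with lower values, differed by -0.47 and did not pass. Cbx6 did not pass by its probe set of highest mean, while another passed in the opposite direction, with -1.11 (limma adjusted p = 0.0462). The count was 1, 1, 1 and 0 without dorsal 1, dorsal 2, ventral 1 and ventral 2.

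Genes listed as cell cycle inhibitors and exit genes did not share 1 direction. Of 12 tested, Gas1 and Gadd45g, a stress-induced growth arrest gene, were higher in the dorsal piece, Gadd45g by at least 1.86-fold. Cdkn1a, the p21 inhibitor of cyclin-dependent kinases, was lower, with 758 and 607 on the dorsal arrays and 2946 and 2899 on the ventral arrays (4.03-fold lower, adjusted p = 0.00721). A second probe set of Cdkn1a differed by -1.31 and did not pass (adjusted p = 0.261). Gas6, a ligand of the TAM receptor kinases, was 2.46-fold lower in the dorsal piece. Gadd45g, Cdkn1a and Gas6 each lost their call when any 1 of the 4 arrays was left out.

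Signalling genes were mixed, and most did not pass. In the Notch pathway, which keeps progenitors from differentiating, 4 of 14 tested genes were higher in the dorsal piece and 0 lower. They were Mfng, a glycosyltransferase that modifies Notch (3109 and 3379.7 on the dorsal arrays and 1187 and 1336 on the ventral arrays, 2.57-fold higher), the DNA-binding partner Rbpj (2.34-fold higher), Hes6 (1.75-fold higher) and Id2. The receptor gene Notch1 and the target gene Hes1 did not pass, with -0.02 ± 0.57 and 0.44 ± 0.40 (SE), and a second probe set of Notch1 with 1.24 did not pass either. The Notch count was 0, 0, 0 and 1 without dorsal 1, dorsal 2, ventral 1 and ventral 2.

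Of 21 tested genes of the Wnt pathway, the ligand gene Wnt7b alone passed. It had 6251 and 7378 on the dorsal arrays and 847 and 1698 on the ventral arrays, a 5.66-fold difference whose adjusted p of 0.0462 was close to the threshold. Among the hedgehog, BMP and TGF-beta genes, Gas1 and the receptor gene Tgfbr1 (at least 2.26-fold higher) and the signal transducer gene Smad4 (2.07-fold higher) were higher in the dorsal piece. The activin receptor gene Acvr2a was 2.72-fold lower, so that 3 of 14 were higher and 1 lower. The 3 became 2, 1, 1 and 2 without dorsal 1, dorsal 2, ventral 1 and ventral 2, and Acvr2a lost its call each time. A second probe set of Acvr2a differed by -1.08 and did not pass.

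Of 21 growth factor genes 1 passed in each direction. Mdk, the heparin-binding growth factor midkine of fetal brain, had 13342 and 11619.8 on the dorsal arrays and 2508 and 1869 on the ventral arrays (5.75-fold higher, adjusted p = 0.00143). Tgfa, an EGF receptor ligand, had 273 and 318 on the dorsal arrays, under the floor, and 2537 and 1446 on the ventral arrays (at least 2.76-fold lower, adjusted p = 0.0363). Crabp1, which binds retinoic acid in the cytosol, had 75.7 and 141 on the dorsal arrays and 3472 and 2708 on the ventral arrays (at least 4.42-fold lower, adjusted p = 0.00352), the single call among 3 retinoid genes tested. Mdk and Crabp1 kept their calls without each of the 12 arrays, and Tgfa kept its call without ventral 2 but not without any of the other 3 dorsal and ventral arrays.

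The remaining genes among the 15 with the largest positive difference have unlike roles. Tiparp, a mono-ADP-ribosyltransferase induced by the aryl hydrocarbon receptor, had 4167 and 3702 on the dorsal arrays and 781 and 769 on the ventral arrays (5.07-fold higher). Lima1, which crosslinks actin filaments, had 3133 and 3299.6 on the dorsal arrays and 441 and 524 on the ventral arrays (at least 4.64-fold higher), and Ezr, which links the membrane to actin, 5976 and 5138 on the dorsal arrays and 1672 and 1406 on the ventral arrays (3.61-fold higher). Rlbp1, a carrier of retinaldehyde known from the glia of the retina, was 3.79-fold higher, and Prkd3, a serine/threonine kinase of the protein kinase D family, 3.78-fold higher. Sstr2, a somatostatin receptor, had 7480.4 and 4430.2 on the dorsal arrays and 1934 and 1478 on the ventral arrays (3.41-fold higher, adjusted p = 0.0217), and thus ran opposite to its ligand gene Sst. Its 2 other probe sets differed by 1.25 (passing) and 0.57 (not passing).

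Ccl4, a chemokine of activated macrophages, stood apart from the others by its profile over the series. It had 2746 and 3822 on the dorsal arrays and -139 and 175 on the ventral arrays (at least 4.67-fold higher, adjusted p = 0.00107), while the other 8 arrays, medial ones included, ranged over -281 to 524 and thus lay under the floor. Ccl4 passed the filter through the dorsal arrays alone. All its other values were set to the floor, so the groups other than dorsal show no spread in the fit. That limits what its adjusted p can show. Among 6 tested markers of microglia and macrophages Ccl4 was the 1 that passed. The summed level of the other 16 such markers on the array, without Ccl4, was 11141 and 10325 in the dorsal piece and 11132 and 14901 in the ventral piece, which overlap, and the part of these cells in the Ccl4 result was not tested.

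**Figure D3:**
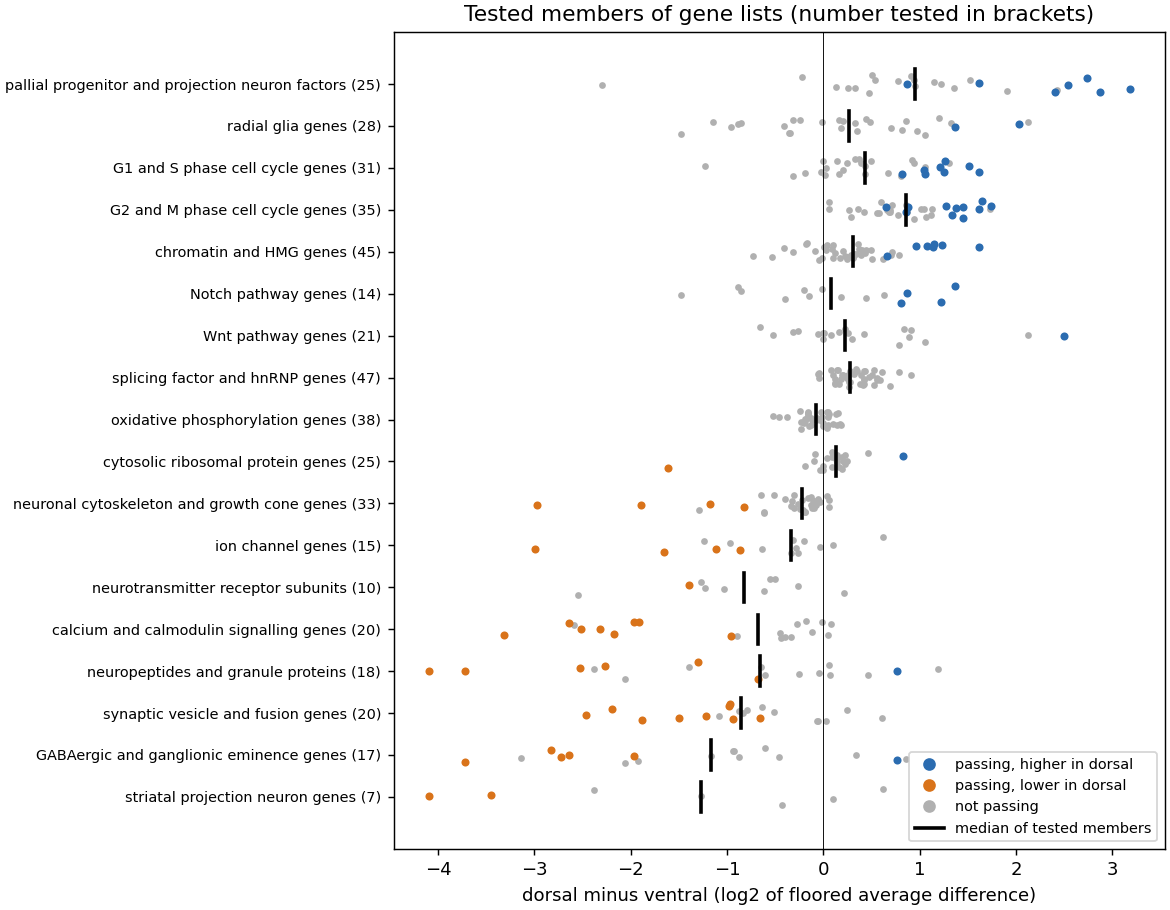
Difference of every tested member of the larger gene lists, dorsal minus ventral in log2 of floored average difference (horizontal axis), with the number tested in brackets. Blue members were higher and orange members lower in the dorsal piece by limma, grey members did not pass, and the bar is the list's median; G2 and M genes all lie right of 0, while neuropeptide, synaptic vesicle and calcium signalling genes reach far to the left.

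Penk, Sst and Pbx3, genes of the striatum and of interneurons, had the 3 largest negative differences among passing genes with 1 symbol. Sst, the neuropeptide somatostatin of a class of interneurons, had 4296 and 2876 on the dorsal arrays and 50907 and 42183 on the ventral arrays. The difference was -3.57 in replicate 1 and -3.87 in replicate 2, so that the gene was 13.2-fold lower in the dorsal piece (adjusted p = 0.00246). Gad1, which makes GABA from glutamate, had 3225 and 2701 on the dorsal arrays and 21535 and 20368 on the ventral arrays (7.10-fold lower, adjusted p = 0.00248). Slc32a1, the transporter that loads GABA into vesicles, had 1647 and 2009.6 on the dorsal arrays and 11147 and 13009.9 on the ventral arrays (6.62-fold lower, adjusted p = 0.00342). In all 3 genes the dorsal values were nonetheless above the floor.

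The calcium-binding protein genes Calb1 and Calb2, which mark sets of interneurons, were also lower in the dorsal piece. Calb1 had 351 and -137 on the dorsal arrays, under the floor, and 4413 and 4217 on the ventral arrays (at least 6.22-fold lower). Calb2 had 1025 and 738 on the dorsal arrays and 3854 and 3004 on the ventral arrays (3.91-fold lower). Of the 17 tested GABAergic and ganglionic eminence genes, 5 were thus lower and 1 was higher, with a median of -1.17. The member that was higher is Npy, the neuropeptide Y gene of another interneuron class, with 26128 and 27369.7 on the dorsal arrays and 17194 and 14337 on the ventral arrays (1.70-fold higher, adjusted p = 0.0245). The count of lower members was 3, 3, 3 and 4 without dorsal 1, dorsal 2, ventral 1 and ventral 2, and Npy lost its call each time.

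Transcription factors that specify these neurons did not pass, although their values were lower in the dorsal piece. Lhx6, a factor of interneurons from the medial ganglionic eminence, had 7523 and 6787 on the dorsal arrays and 11378 and 10361 on the ventral arrays, and its difference of -0.60 ± 0.17 (SE) did not pass (adjusted p = 0.0916). The homeobox genes Dlx1 and Dlx2, which act in subpallial progenitors and migrating interneurons, had -0.92 ± 0.38 and -0.46 ± 0.44, neither of which passed. Dlx5 had 819.9 and 518 on the dorsal arrays and 3623 and 2271 on the ventral arrays (adjusted p = 0.0823), and Gad2, the second GABA-synthesising enzyme, 409 and 393 on the dorsal arrays and 1685 and 1437 on the ventral arrays (adjusted p = 0.138). All 5 genes were higher on both ventral arrays than on both dorsal arrays, as were 24.5% of all tested probe sets. The opposite order, both dorsal arrays above both ventral ones, held for 28.7%. Cxcr4 and Ackr3 of the same list had that opposite order, with differences of 0.85 ± 0.32 and 0.34 ± 0.32 (SE), and did not pass.

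Penk, the enkephalin precursor of striatal projection neurons, had 625 and 688 on the dorsal arrays, under the floor, and 10804 and 12985 on the ventral arrays. The difference was -3.96 in replicate 1 and -4.23 in replicate 2, a gap of at least 17.1-fold toward lower dorsal values (adjusted p = 0.00404). That probe set is of a kind that can match several related sequences, and another tested probe set of the gene differed by -0.90 without passing. Pbx3, a homeodomain factor of the striatum, had 2038 and 1819.8 on the dorsal arrays and 23535 and 18826 on the ventral arrays (10.9-fold lower, adjusted p = 0.00595). Its 2 other probe sets passed too, with -4.07 and -3.82. These were the calls among 7 tested striatal genes, whose median was -1.27, and the count was 1, 1, 1 and 2 without dorsal 1, dorsal 2, ventral 1 and ventral 2.

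The dopamine receptor gene Drd2 and the tachykinin gene Tac1, both of striatal projection neurons, were below the floor on both dorsal arrays and above it on both ventral arrays. Drd2 had 467 and 509.7 on the dorsal arrays and 1626 and 1709.6 on the ventral arrays (adjusted p = 0.0680), and Tac1 had 335 and 210 on the dorsal arrays and 4158 and 3154 on the ventral arrays (adjusted p = 0.0813). Neither passed. Not every tested striatal gene was lower in the dorsal piece. Pde1b had 6315 and 5011 on the dorsal arrays and 4429 and 3046 on the ventral arrays (log2 0.615 ± 0.37 SE). Foxp1 differed by 0.10 ± 0.34 and Meis2 by -0.43 ± 0.44 (SE), and none of these passed. The share of striatal cells in the ventral piece was not measured, and their part in the other ventral values was not tested.

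Neuropeptides and proteins of secretory granules were lower in the dorsal piece in 6 of 18 tested genes and higher in 1, Npy, with a median of -0.66. Scg2, the granule protein secretogranin II, had 1665 and 1387 on the dorsal arrays and 9187 and 8316 on the ventral arrays (5.75-fold lower, adjusted p = 0.00107). Chgb, chromogranin B, had 4434 and 4757 on the dorsal arrays and 7311 and 7347 on the ventral arrays, a smaller 1.60-fold difference (adjusted p = 0.0402). Resp18, a protein of neuroendocrine secretory cells, had 341 and 271 on the dorsal arrays and 3608 and 3095 on the ventral arrays (at least 4.82-fold lower, adjusted p = 0.00107), and Nxph1, a secreted ligand of neurexins, 182 and -118 on the dorsal arrays and 1901 and 1537 on the ventral arrays (at least 2.47-fold lower). Nxph1 exceeded the filter cut of 1387 on the ventral arrays alone. Sst and Penk complete the 6. The count was 4, 4, 4 and 5 without dorsal 1, dorsal 2, ventral 1 and ventral 2. Cck, the cholecystokinin gene, had 1724 and 1078 on the dorsal arrays and 6338 and 5102 on the ventral arrays and did not pass (adjusted p = 0.0760).

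The promoters of several secretory peptide genes carry the cyclic AMP response element TGACGTCA, which is bound by CREB and is best known from the rat somatostatin gene. Its letters read the same on both strands. The 120 bases before the RefSeq start of 3 of the 6 genes are printed, since these were the ones that held it, from build GRCm38.p6 with the element in capitals. Sst lies on the minus strand at chr16:23890845-23890964, Scg2 on the minus strand at chr1:79440027-79440146 and Chgb on the plus strand at chr2:132781522-132781641.
Sst: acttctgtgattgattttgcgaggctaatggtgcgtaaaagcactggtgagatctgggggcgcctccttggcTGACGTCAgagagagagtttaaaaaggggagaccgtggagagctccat
Scg2: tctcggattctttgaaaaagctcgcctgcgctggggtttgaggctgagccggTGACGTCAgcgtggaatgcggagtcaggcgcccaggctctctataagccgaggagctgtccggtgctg
Chgb: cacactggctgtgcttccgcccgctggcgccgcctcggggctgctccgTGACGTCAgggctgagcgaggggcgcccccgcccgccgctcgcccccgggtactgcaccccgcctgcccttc
The element begins 48 bases before the start in Sst, 68 in Scg2 and 72 in Chgb. Windows were matched for 5 of the 6 genes, all but Penk, and those of Nxph1 and Resp18 do not hold these letters. Within 250 bases upstream it occurred in 8 of 109 genes lower in the dorsal piece (7.34%), in 1 of 108 genes higher there (0.926%) and in 2.92% of tested genes with a window. The motif was chosen after the values were seen, so these shares carry no test and say nothing of the factor.

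Genes of synaptic vesicles and their fusion were lower in the dorsal piece in 9 of 20 tested members and higher in 0, with a median of -0.86. Nsf, the ATPase that recycles the fusion complex, had 2207 and 2478 on the dorsal arrays and 7037 and 10549 on the ventral arrays (3.68-fold lower, adjusted p = 0.00496). Dnm1, the dynamin of vesicle retrieval, had 7906 and 7364 on the dorsal arrays and 22885 and 20199.8 on the ventral arrays (2.82-fold lower, adjusted p = 0.00511). Syn2, a synapsin that tethers vesicles, had 824 and 909.8 on the dorsal arrays and 4021 and 5681 on the ventral arrays (5.52-fold lower, adjusted p = 0.0136). All dorsal values of these genes lay below all ventral values. The same held for all 163 probe sets called lower and for 24.5% of all tested. The vesicle protein gene Syp was 4.58-fold lower, and Stx1a and Snap25, which form the fusion complex, were 2.33-fold and 1.96-fold lower. The count was 1, 2, 1 and 3 without dorsal 1, dorsal 2, ventral 1 and ventral 2.

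Calcium and calmodulin signalling genes were lower in 8 of 20 tested members and higher in 0, with a median of -0.67. Ngef (ephexin), an exchange factor that acts below EphA receptors, had 1325 and 999 on the dorsal arrays and 11048 and 11928 on the ventral arrays (9.98-fold lower, adjusted p = 0.0159). Vsnl1, a neuronal calcium sensor, had 1956 and 1942 on the dorsal arrays and 11974 and 10369 on the ventral arrays (5.72-fold lower, adjusted p = 0.00143). Prkcb, a protein kinase C, and Rasgrp2, a calcium-regulated exchange factor of Rap, were 3.77-fold and at least 4.97-fold lower, and Calb1 and Calb2 belong to this list as well. The count was 3, 3, 3 and 4 without dorsal 1, dorsal 2, ventral 1 and ventral 2. Nrgn, a calmodulin-binding protein of dendrites, had 514 and 467 on the dorsal arrays and 3378 and 5109.6 on the ventral arrays and missed the threshold (adjusted p = 0.0697).

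Genes of membrane excitability were lower in the dorsal piece where they passed. Of 15 ion channel and pump genes 4 were lower and 0 higher. Fxyd7, a brain regulator of the sodium pump, had 507 and -737 on the dorsal arrays and 5983 and 5065 on the ventral arrays (at least 7.94-fold lower, adjusted p = 0.0165), and the pump subunit gene Atp1b1 was 2.16-fold lower. The potassium channel genes Kcnd2 and Kcnk1 were 3.14-fold and 1.83-fold lower. Of 10 transmitter receptor subunits only the kainate receptor gene Grik1 passed, with 169 and 170.1 on the dorsal arrays and 1611 and 2049.8 on the ventral arrays (at least 2.62-fold lower). The GABA-A receptor gene Gabrb1 had 561 and 658 on the dorsal arrays and 2500.4 and 6603 on the ventral arrays and did not pass (adjusted p = 0.0705). The channel count was 0, 0, 1 and 0 without dorsal 1, dorsal 2, ventral 1 and ventral 2, and Grik1 lost its call each time.

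Most genes of the neuronal cytoskeleton and growth cone did not differ beyond the threshold. Of 33 tested, 4 were lower in the dorsal piece and 0 higher, with a median of -0.22. Thy1, a surface glycoprotein of maturing neurons, had 773 and 1089 on the dorsal arrays and 6716 and 7681 on the ventral arrays (7.83-fold lower, adjusted p = 0.00496). Nefl, the light neurofilament chain, had 223 and 386 on the dorsal arrays and 2667 and 2471 on the ventral arrays (at least 3.70-fold lower, adjusted p = 0.0462), and Eno2, the neuronal enolase, was 2.26-fold lower. Gap43, a growth cone protein, had a smaller difference of 1.76-fold. General markers of young neurons lay near 0. The microtubule-binding protein gene Dcx differed by -0.10 ± 0.15 (SE), the neuronal tubulin gene Tubb3 by -0.04 ± 0.17 and the dendritic protein gene Map2 by 0.06 ± 0.39. The count was 0, 1, 1 and 1 without dorsal 1, dorsal 2, ventral 1 and ventral 2.

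The rest of the 15 genes with the largest negative difference complete the neuronal side. Btbd3, which orients dendrites in mouse sensory cortex, had 865 and 1191 on the dorsal arrays and 5302 and 9639 on the ventral arrays (7.04-fold lower, adjusted p = 0.00342). Chchd10, a protein of the mitochondrial intermembrane space, had 1050.2 and 1363 on the dorsal arrays and 7155 and 7829 on the ventral arrays (6.26-fold lower, adjusted p = 0.0138). Rit2, a Ras-like GTPase of neurons, had 637 and 585 on the dorsal arrays, under the floor, and 3753 and 3765 on the ventral arrays (at least 5.42-fold lower, adjusted p = 0.0192). A second Rit2 probe set gave -1.60 and did not pass.

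Guidance genes passed in both directions. Epha7, a receptor of the Eph family, had 1237 and 1083 on the dorsal arrays and 2541 and 2663 on the ventral arrays (2.25-fold lower, adjusted p = 0.00511). The ligand gene Efnb3 was 2.36-fold lower and the ligand gene Efnb1 2.34-fold higher in the dorsal piece, so that 3 of 12 Eph and ephrin genes differed. Among 19 semaphorin, netrin and slit genes and their receptors, Sema7a, a membrane-anchored semaphorin, was 2.42-fold higher and the receptor gene Plxnd1 3.51-fold lower. The netrin gene Ntn1 had 933 and 1041 on the dorsal arrays and 4604 and 4398 on the ventral arrays, and the semaphorin receptor gene Nrp1 had 10708 and 13449 on the dorsal arrays and 2186 and 3784 on the ventral arrays. Neither passed (adjusted p = 0.120 and 0.0827). Efnb1, Sema7a and Plxnd1 each lost their call when any 1 of the 4 arrays was left out, Epha7 without dorsal 2, and Efnb3 without dorsal 1 or ventral 1. A second probe set of Efnb3 differed by -0.80 and did not pass.

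Some genes whose dorsal and ventral values lay far apart did not pass in the fit of all 6 groups. Lhx8, a factor of the ventral forebrain, had 80.0 and -9.50 on the dorsal arrays and 6752 and 5537 on the ventral arrays, a log2 difference of -3.14 ± 0.94 (SE, adjusted p = 0.101). Its rostral arrays had 152 and 4649 and its occipital arrays 4665 and 617, so that replicates of those pieces lay far apart. Zic1, a zinc finger factor of the ventral forebrain midline, had 599 and 907 on the dorsal arrays and 6841 and 7453 on the ventral arrays (log2 -3.17 ± 0.96 SE, adjusted p = 0.104), with 3284 and 22097 on the rostral and 20733 and 2878 on the occipital arrays. In both genes rostral 2 lay near occipital 1, and rostral 1 lay nearer occipital 2 than rostral 2. Pbx3 and Nr2f2 had the same crossed order, so that the rostral and occipital means of these genes average unlike arrays. It was not confined to them. Gad1, with 9787 and 13984 on the rostral and 14941 and 8168 on the occipital arrays, had it, as did Penk, Calb1, Thy1 and Syn2. Mdk and Btbd3 did not. These arrays enter the estimate of spread in the fit of all 6 groups. The cause of that order was not tested. Fitted without the rostral and occipital arrays, Lhx8 and Zic1 both passed with an adjusted p of 0.000959. Nr2f2, Cck, Tac1, Nrgn, Sfrp1 and Ntn1 passed as well in that fit, while Nfib, Gabrb1 and Nrp1 did not.

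Several lists of general cell functions gave few or no calls. Of 38 oxidative phosphorylation genes 0 differed, with differences between -0.52 and 0.18 and a median of -0.07. Of 47 splicing factor genes 0 differed by their probe sets of highest mean, although their median of 0.28 lay above that of all genes. Another probe set of Nono did pass, with 0.90 (limma adjusted p = 0.0378). Of 25 ribosomal protein genes, Rpl13a was 1.77-fold higher and Rps4l, which has a near copy in Rps4x, 3.05-fold lower in the dorsal piece. Of 13 glycolysis genes 2 were lower, Aldoa by 1.80-fold and Eno2. A second probe set of Aldoa differed by -0.89 and did not pass. Of 20 lipid genes the apolipoprotein gene Apoe was 2.21-fold lower, and of 33 matrix genes the collagen gene Col9a2 1.81-fold lower. The lipid gene Scd1 did not pass by its probe set of highest mean. Another passed with -1.29 (limma adjusted p = 0.00786), and the rest did not. Among 21 immediate early and stress genes, Mycn, a proliferation factor, and Dusp6, a phosphatase induced by ERK signals, were 2.19-fold and 2.59-fold higher, and the heat shock gene Hspa1b was at least 2.33-fold lower. Of 4 subplate and Cajal-Retzius genes, Calb2 and Ebf2 (at least 2.49-fold) were lower. Of 15 amygdala, piriform and ventral pallium genes, Tgfa was lower and Fezf2 and Npy were higher, and of 13 cadherin genes the catenin gene Ctnna1 was 1.85-fold higher. Of the genes called in these lists, Ebf2 kept its call without either ventral array, Mycn and Tgfa without ventral 2 and Hspa1b without ventral 1, and otherwise each call was lost without any 1 of the 4 arrays.

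Markers of other cell types that a dissected piece could also hold gave few calls. Of 4 tested markers each, those of meninges and of endothelium had 0 calls, and of the 3 each of choroid plexus, oligodendrocyte lineage and diencephalon also 0. Of 4 red blood cell markers the carbonic anhydrase gene Car2, which glia also express, was 2.07-fold lower in the dorsal piece, a call that was lost without dorsal 1, ventral 1 or ventral 2. The summed level of the 10 red blood cell markers was 86962 and 84980.1 in the dorsal piece and 92949 and 79537 in the ventral piece. That of the 14 meningeal markers was 10473 and 10297 in the dorsal piece and 11205 and 13455 in the ventral piece, lower in the dorsal piece without overlap, and the collagen gene Col3a1 and the meningeal marker Foxc1 lay under the floor on all 4 arrays. The endothelial sum of 15 markers was 16312 and 14931 in the dorsal piece and 15892 and 15639 in the ventral piece. The sums of 3 other lists were also lower in the dorsal piece without overlap. The sum of 7 oligodendrocyte markers was 3858 and 3723 in the dorsal piece and 6913 and 6861 in the ventral piece. That of 14 diencephalic markers was 6462 and 7447 in the dorsal piece and 8566 and 11971 in the ventral piece. That of 6 choroid plexus markers was 2687 and 3101 in the dorsal piece and 4573 and 4129.8 in the ventral piece. In the choroid list the defining gene Ttr had 74.5 and 49.8 on the dorsal and 329 and 84.2 on the ventral arrays, all under the floor. The part of these cells in the differences described was not tested. The 4 tested sex-linked transcripts had 0 calls. The sum of the 6 on the array was 30867 and 34496 in the dorsal piece and 26973 and 29547 in the ventral piece, higher in the dorsal piece without overlap. Most of each sum came from Eif2s3x. Xist had 2953 and 4522 on the dorsal and 2053 and 3239 on the ventral arrays, which overlap, as did the values of Eif2s3y. The sum adds X-linked and Y-linked transcripts and is no measure of sex. The ratio of 5′ to 3′ signal of the actin control, a sign of RNA length, was 0.706 and 0.886 on the dorsal arrays and 0.665 and 0.856 on the ventral arrays, so that it moved with the replicate number.

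The other pieces lay nearer the dorsal than the ventral piece more often than not, also among probe sets that did not pass. Of the 145 probe sets higher in the dorsal piece, the medial mean was nearer the dorsal than the ventral mean in 133 (91.7%). The rostral mean was so in 122 (84.1%), the occipital in 121 (83.4%) and the whole hemisphere in 114 (78.6%). Of the 163 lower in the dorsal piece, the same held for 151 (92.6%), 110 (67.5%), 106 (65.0%) and 103 (63.2%). Among probe sets that did not pass, the shares were 70.2% for the medial, 65.9% for the rostral, 59.4% for the occipital piece and 59.0% for the hemisphere. The rostral, occipital and hemisphere shares of the 163 were thus only slightly above those of probe sets that did not pass. These comparisons share the dorsal and ventral arrays. The rostral and occipital means average unlike arrays in genes with the crossed order described above. The medial mean lay beyond the dorsal one, away from the ventral one, in 96 of the 145 and in 82 of the 163. Among the 5524 probe sets that did not pass it did so in 2789, a share close to that of the 163. Eomes had 7361 and 9542 on the medial arrays and Neurog2 7141 and 9904, all above the dorsal values given above. Pbx3 had 1022 and 917 on the medial arrays and Scg2 397 and 152, all below the dorsal values. Wnt7b and Tiparp did not follow this order. Wnt7b had 2496 and 2676 on the medial arrays and Tiparp 2164 and 1658, below both dorsal values of each gene.

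**Figure D4:**
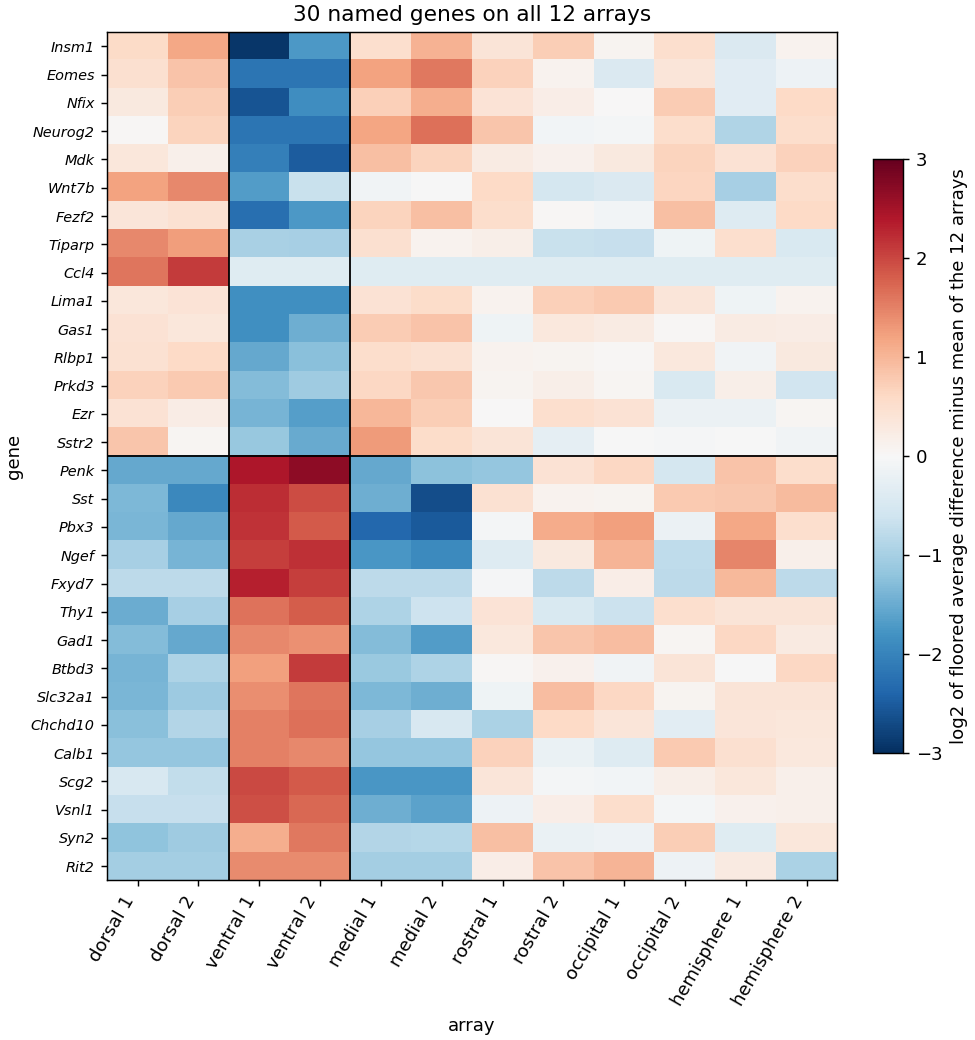
The 30 named genes (rows, those higher in the dorsal piece above the line) on all 12 arrays (columns), as log2 of floored average difference minus the gene's mean over the 12 arrays. Red is above and blue below the gene's mean; the medial columns take the dorsal side for most genes, Ccl4 is raised on the dorsal arrays alone, and the rostral, occipital and hemisphere columns are mostly pale.

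Of the 30 named genes, 13 kept their call without each of the 12 arrays in turn: Eomes, Mdk, Ccl4, Lima1, Gas1, Rlbp1, Penk, Sst, Gad1, Btbd3, Slc32a1, Scg2 and Vsnl1. Another 7 lost it without some of the 4 dorsal and ventral arrays, with an adjusted p of at most 0.0632. These were Insm1 (without dorsal 2), Thy1 (without dorsal 1), Nfix (without dorsal 2 or ventral 1), Ezr (without dorsal 1 or ventral 2), and Prkd3, Pbx3 and Calb1 (without dorsal 1, dorsal 2 or ventral 1). The other 10, which are Neurog2, Wnt7b, Fezf2, Tiparp, Sstr2, Ngef, Fxyd7, Chchd10, Syn2 and Rit2, lost it without any 1 of the 4. Wnt7b reached the highest adjusted p, 0.281, and also lost its call without either medial or either occipital array. The sign of all 30 differences could not change in these fits, since their dorsal and ventral arrays do not overlap. Ccl4 passed the filter through its dorsal arrays alone, and all its other values were set to the floor, so little spread entered its fits.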

How the data were processed

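Messenger RNA was measured on 12 arrays, 2 for each of 6 groups, and the dorsal and ventral arrays were compared. Per the labels, each deposited intensity is an average difference by Affymetrix's definition. The authors had scaled the arrays, since the deposited values have a trimmed mean of 2500 on each. The software is not given in the sources used here.

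Of 12488 probe sets, 66 controls were left out. The floor of 693.5 is the root mean square of the negative values, and lower values were raised to it before log2. Tested were 5832 probe sets (46.9%) that exceeded 1387, 2 times the floor, on 2 or more of the 12 arrays. The platform annotation names 1 symbol for 5292, several for 212 and none for 328 of these, which gives 4562 genes. A RefSeq table (GRCm38.p6) changed 0 symbols, and promoter windows came from RefSeq by symbol, for 3699 of the 4562 genes.

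limma 3.58.1 in R 4.3.3 fitted 1 mean per group, with 6 residual and 2.86 prior degrees of freedom. Two-sided p-values were adjusted over all 5832 probe sets (Benjamini-Hochberg, threshold 0.05). The steps were tested on simulated data. The arrays come from independent dissections per the labels, and no number of animals is given. The number of arrays limits the precision.

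Named are the 15 genes with the largest difference in each direction among those that passed with 1 symbol and the same sign in both replicate numbers, by the passing probe set with the highest mean. From each gene list come all passing members up to 6, otherwise the 6 with the smallest p, and members of known role that did not pass. Lists use the probe set with the highest mean. The members and lists were chosen with earlier results of these data known. The alternatives were other floors, filters, an arcsinh scale, quantile normalization, a robust fit with a variance trend, a block for the replicate number, fits of fewer arrays, and each array left out in turn.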

Additional observations from a re-analysis of the deposited data

How the results depend on the processing

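As reported, limma gave 308 probe sets that passed, 145 higher and 163 lower in the dorsal piece. No filter gave 188, 90 and 98, where more probe sets are tested. A fit of only the 4 dorsal and ventral arrays gave 90 higher in the dorsal piece, and 163 of the 308 passed in it. Of the 30 named genes, Insm1, Wnt7b and Sstr2 lost their call in that fit. Replicate number as a block gave 587 (313 higher and 274 lower), and the block without the rostral and occipital arrays gave 658 (361 and 297). The labels do not say that equal numbers share a dissection. The array-to-array deviations of the dorsal and ventral pieces correlated at 0.562 between equal numbers, a hint from the data and not from the design. The block also moved list counts. Among those that moved by 1.5 times or more, members higher in the dorsal piece became 12 of 25 pallial factors (7 without it), 8 of 28 radial glia genes (2), 4 of 21 Wnt genes (1), 4 of 21 growth factor genes (1), 4 of 47 splicing genes (0), 3 of 19 semaphorin, netrin and slit genes (1), 4 of 12 cycle exit genes (2) and 12 of 31 G1 and S genes (8). Members lower there became 4 of 10 receptor subunits (1), 4 of 15 amygdala and ventral pallium genes (1), 3 of 21 growth factor genes (1) and 3 of 20 lipid genes (1). With the block, Nfib, Gabrb1, Sfrp1 and Nrp1 passed as well. Leaving out each array in turn gave 49 to 347 probe sets, 14 to 171 higher and 32 to 176 lower in the dorsal piece. The lowest counts came without one of the 4 dorsal and ventral arrays, where 1 array of a group remains. The other alternatives, which were other floors, stricter filters, quantile normalization, an arcsinh scale, a trend with robust variances and a fit without the rostral and occipital arrays, kept each count within 1.5 times. All 120 probe sets followed, 109 that passed and 11 described above that did not, kept their sign in every setting. In each of them the dorsal and ventral arrays do not overlap, so leaving out an array or changing the floor could not reverse the sign. Signals under the floor limit how large a fold can be measured.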
